A study of Rattus norvegicus with 18 samples.

Results

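CXC chemokines are small secreted proteins that draw leukocytes into tissue, and they act through CXC receptors, which are G protein-coupled receptors on the responding cells. Those with a Glu-Leu-Arg motif before the first cysteines, such as Cxcl1 and Cxcl2, attract neutrophils through Cxcr2, while Cxcl9, Cxcl10 and Cxcl11 are induced by interferons and attract activated T and NK cells through Cxcr3. Cxcl12, made by stromal cells, retains cells through Cxcr4, Cxcl13 guides B cells through Cxcr5, and Cxcl16 is a membrane-bound ligand of Cxcr6; in inflamed synovium several of them are studied as signals for leukocyte entry. The set described here holds 10 genes, 8 ligands and the receptors Cxcr3 and Cxcr4. Members were found by gene name, or a current synonym of it, among the gene probes of each array. Of the 10 members, 9 had a probe, with 11 probes in all, and 6 of them (Cxcl1, Cxcl9, Cxcl10, Cxcl12, Cxcl13 and Cxcr4) were among the 23609 genes tested. No probe was matched to Cxcl16, which was therefore not analysed here.

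Synovium was taken from the knees of male rats of the inbred Lewis strain, aged 6 to 8 weeks and weighing 200 ± 20 g. It was labelled with the dye Cy3 and read on 18 single-colour arrays, with 3 arrays in each of 6 groups. The groups were untreated normal rats (control), rats with adjuvant induced arthritis (AIA), and the AIA-cold and AIA-hot models. The last 2 groups were those models given WTD, a herbal preparation (AIA-cold-WTD and AIA-hot-WTD); the study's other treatment groups were not analysed here. AIA is a joint inflammation raised by injecting an adjuvant, so every group but control carried it; the labels do not say how the cold and hot models were made, nor the dose or route of WTD. The series looked for active compounds of WTD in the cold form. Each array is called a biological replicate, but the labels do not say whether the numbers in the titles are animals. Replicate numbers here therefore only name arrays, and the p-values measure a spread between arrays that may be partly technical. All 6 WTD arrays carry their WTD group's label, but their titles hold different letters that the labels do not explain: G on AIA-cold-WTD replicate 1 and Z on the other 2, and D, G and Z on AIA-hot-WTD replicates 1, 2 and 3. Whether the arrays of a WTD group had 1 and the same treatment therefore cannot be told, and each mean, SE and p of these groups assumes it. The comparisons against control share the 3 control arrays, and those against an untreated model share that model's arrays.

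One control array stood apart. On control replicate 1 the array-wide 75th percentile was 68.9 signal units, against 201 to 331 on the other 17, and 43.3% of the gene probes there were well above background against 56.4% to 76.6% elsewhere. The mean of 10 cartilage genes was 4.57 on that array (log2, relative to the array's 75th percentile) and between -2.05 and 1.29 on the other 17. For the members, results against control are therefore given with and without it (an alternative chosen after the data were seen, where medians, overlap and bounds are concerned). All 14 genes of a synovial fibroblast and lining list, among them the lubricin gene Prg4, were well above background on all 18 arrays. The arrays lay on 5 slides. Of the arthritis groups AIA alone shared a slide with control, through 1 array, and AIA-cold shared none with control, AIA or AIA-hot, so in these comparisons slide and group cannot be told apart. In bulk tissue, fewer cells of a type and less RNA per cell cannot be told apart.

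Of the 8 ligands, 5 sit in 2 short stretches of rat chromosome 14. The 250 bases before the start of 4 of them are shown because Cxcl1 and Cxcl2, and likewise Cxcl10 and Cxcl11, are near neighbours of which the first was well above background on 17 arrays and the second on few. Sequences are RefSeq's, on GRCr8, written 5′ to 3′ in the direction of transcription, with matches in capitals. Cxcl1 lay on the minus strand at chr14:17479322-17479571 and Cxcl2 on the minus strand at chr14:17467256-17467505; capitals mark a pattern bound by NF-kB (GGG, any 2 bases, then TTTCC), on either strand. Cxcl10 lay on the plus strand at chr14:15988816-15989065 and Cxcl11 on the plus strand at chr14:15973478-15973727; capitals mark the interferon-stimulated response element, ISRE (TTTC, any 2 bases, then TTTC), the gamma-activated site, GAS (TTCNNNGAA) or the TATA box TATAAA, on either strand.
Cxcl1: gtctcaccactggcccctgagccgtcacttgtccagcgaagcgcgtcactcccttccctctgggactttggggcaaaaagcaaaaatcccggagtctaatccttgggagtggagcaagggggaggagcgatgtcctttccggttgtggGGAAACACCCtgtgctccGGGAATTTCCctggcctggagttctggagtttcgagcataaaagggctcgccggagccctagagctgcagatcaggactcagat
Cxcl2: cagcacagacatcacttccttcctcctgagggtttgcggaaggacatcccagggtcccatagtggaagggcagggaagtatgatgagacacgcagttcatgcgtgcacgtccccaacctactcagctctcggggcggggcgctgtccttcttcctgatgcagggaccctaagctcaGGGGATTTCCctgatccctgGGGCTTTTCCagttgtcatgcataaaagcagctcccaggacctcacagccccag
Cxcl10: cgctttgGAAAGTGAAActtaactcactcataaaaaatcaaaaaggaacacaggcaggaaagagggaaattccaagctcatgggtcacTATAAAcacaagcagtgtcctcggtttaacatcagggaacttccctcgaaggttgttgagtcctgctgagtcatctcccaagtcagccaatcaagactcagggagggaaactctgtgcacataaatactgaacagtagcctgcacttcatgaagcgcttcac
Cxcl11: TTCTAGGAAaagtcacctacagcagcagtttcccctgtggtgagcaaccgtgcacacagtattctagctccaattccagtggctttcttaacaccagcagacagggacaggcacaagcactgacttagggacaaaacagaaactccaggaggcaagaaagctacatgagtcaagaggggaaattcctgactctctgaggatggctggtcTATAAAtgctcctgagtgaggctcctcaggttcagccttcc

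In Cxcl1 the NF-kB pattern stood at 84 to 75 bases before the start and, on the other strand, at 102 to 93. In Cxcl2 it stood at 74 to 65 and at 54 to 45. Both genes thus held it 2 times within the window, while 1.3% of 33469 RefSeq promoters held it at all. The Cxcl10 window held 1 ISRE, at 243 to 234 bases before the start on the opposite strand, and a TATA box at 162 to 157. An ISRE was present in 3.41% of promoters. Cxcl11 held a GAS at 250 to 242 and a TATA box at 41 to 36; 7.67% of promoters held the first and 12.9% the second. Of the other members, Cxcl13 held 1 TATA box and Cxcr4 the same 6 letters in both orientations, overlapping. Cxcl9, Cxcl12, Cxcl16 and Cxcr3 held none of the 4 patterns in these 250 bases. A match describes letters and is not evidence of binding, and a window without one says nothing about the factor.

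Over the 14 comparisons fitted, no member passed a Benjamini-Hochberg adjusted p of 0.05 in limma's moderated test over all genes. In AIA against control 0 of 6 tested members passed, where 0% of all genes did; at an unadjusted p under 0.05 the counts were 2 members and 6.29% of all genes. AIA-cold against control gave 0 members beside 0.534% of all genes, and unadjusted 2 members beside 18.7%. For AIA-hot against control the figures were 0 beside 0.0551%, and unadjusted 2 beside 12.1%. AIA-cold-WTD against control had 0 beside 0.0296% and unadjusted 1 beside 15.1%. AIA-hot-WTD against control had 0 beside 0.0805% and unadjusted 1 beside 13.5%. For the mean of the 3 untreated arthritis groups against control it was 0 beside 0.119%, and unadjusted 2 beside 16.1%. None of these counts says more than that no single member stood out from its own spread at 3 arrays a group.

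Comparisons among the arthritis groups gave the same count. AIA-cold against AIA had 0 members beside 0% of all genes (unadjusted 0 beside 9.05%), and AIA-hot against AIA 0 beside 0% (unadjusted 1, Cxcr4, beside 5.13%). AIA-cold against AIA-hot had 0 beside 0.00847% (unadjusted 0 beside 5.49%). WTD in the cold model gave 0 beside 0.00847% (unadjusted 0 beside 6.09%) and WTD in the hot model 0 beside 0% (unadjusted 0 beside 2.28%). The mean effect of WTD over both models gave 0 beside 0% (unadjusted 0 beside 3.71%), and the difference between its effects 0 beside 0% (unadjusted 0 beside 4.19%). A test for any difference among the 6 groups gave 0 beside 0.0297% (unadjusted 1, Cxcl1, beside 10.8%). The median difference of the 6 members from control was 0.28 (log2) in AIA, 0.53 in AIA-cold, 0.76 in AIA-hot, 0.41 in AIA-cold-WTD and 0.60 in AIA-hot-WTD, while the medians over all genes ran from -0.06 to -0.03. Leaving out control replicate 1, the members' medians were 0.28, 0.13, 0.66, 0.48 and 0.45, and those of all genes -0.04 to 0.02. Under normexp background correction the all-gene medians of these comparisons were -0.21 to -0.14.

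**Figure D1:**
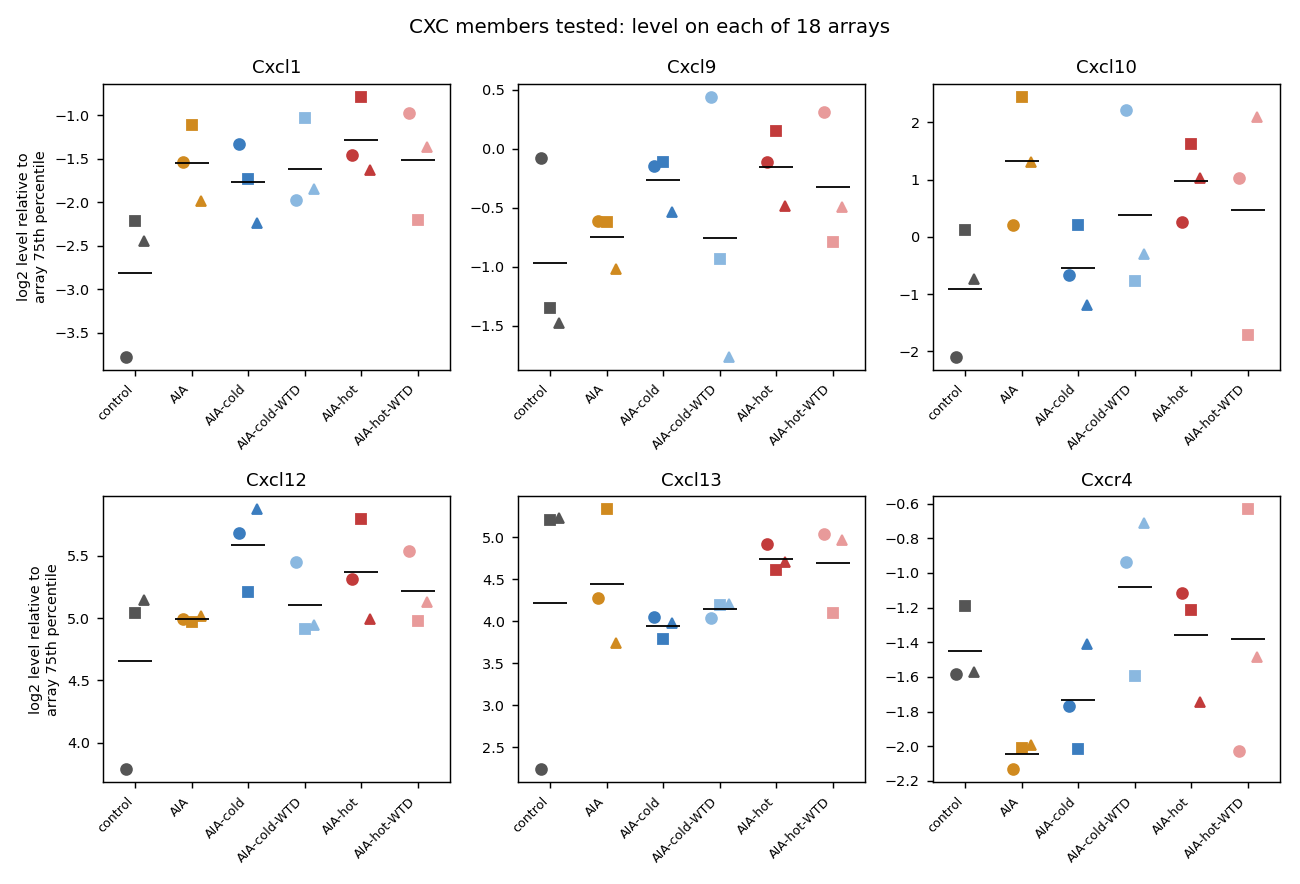
Level of each tested member on each array (log2 of the processed signal relative to the array's 75th percentile; circle, square and triangle are replicates 1, 2 and 3, and the line is the mean of 3 arrays). Control replicate 1 is the lowest array for Cxcl1 (-3.77), Cxcl10 (-2.09), Cxcl12 (3.79) and Cxcl13 (2.24), and for Cxcl9 the highest control (-0.08).

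Cxcl1, a neutrophil attractant that acts through Cxcr2, was read by a probe at chr14:18690468-18690527 (rn4, the build of the array's coordinates; whether probes lie in coding sequence or UTR was not looked up, as no annotation of that build was used). Its levels were -3.77, -2.21 and -2.44 on the control arrays and -1.54, -1.11 and -1.98 on the AIA arrays. AIA-cold arrays read -1.33, -1.73 and -2.24, and AIA-hot arrays -1.45, -0.78 and -1.63. With WTD the cold model read -1.97, -1.04 and -1.85 and the hot model -0.97, -2.21 and -1.37. Of the 15 arthritic arrays 14 lay above the highest control and AIA-cold replicate 3 did not. The nearest other arthritic array was AIA-hot-WTD replicate 2, equal to control replicate 2 at 2 decimals. Control replicate 1 was the single array whose Cxcl1 signal was not well above background.

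The Cxcl1 mean was -2.81 ± 0.84 in control (SD, n = 3) and -1.54 ± 0.43 in AIA, a difference of 1.27 ± 0.44 (SE; adjusted p = 0.756), or 2.40-fold. AIA-hot differed from control by 1.52 ± 0.44 (adjusted p = 0.191) and AIA-cold by 1.04 ± 0.44 (adjusted p = 0.217). AIA-cold-WTD differed by 1.19 (adjusted p = 0.239) and AIA-hot-WTD by 1.29 (adjusted p = 0.219). The arrays did not overlap with control in AIA, AIA-hot, AIA-cold-WTD and AIA-hot-WTD, and did in AIA-cold. For the mean of the untreated arthritis groups the difference was 1.28 ± 0.36, with the smallest adjusted p of the set there, 0.144. Without control replicate 1 the 5 groups differed from control by 0.56 to 1.04 and the untreated mean by 0.79 ± 0.35 (adjusted p = 0.509). With normexp background correction it was 0.22 ± 0.18 for the untreated mean. Between AIA and AIA-cold Cxcl1 differed by -0.22, and WTD by 0.15 in the cold and -0.23 in the hot model, each within 1 SE.

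Cxcl2, the close relative and neighbour of Cxcl1, was near background. Its probe, at chr14:18677236-18677295, was well above background on 3 of 18 arrays: AIA-cold replicate 3 (-4.24) and AIA-hot-WTD replicates 2 (-2.52) and 3 (-4.21). Under the scanner's weaker criterion of a positive and significant signal it was detected on 17 arrays. In control it read -3.88, -4.55 and -3.91 and in AIA -3.73, -4.09 and -5.47, none well above background. AIA-hot-WTD replicate 2 was the highest array of all, and the same array had the highest mean over 8 neutrophil genes (3.06, against 0.30 and 0.89 on the other AIA-hot-WTD arrays and -2.04 to -1.21 in control). AIA-cold-WTD replicate 3 had a neutrophil mean of 3.04 and a Cxcl2 level of -5.13. The part of these cells in the Cxcl2 readings was not tested. The hot model given WTD came out 1.09-fold brighter than the hot model's limit of detection, which is no strict bound, as 1 of the 3 arrays was itself not well above background and the arrays overlapped. Cxcl2 was not tested.

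Neutrophil genes were read beside both ligands. Their median difference from control was 0.46 in AIA, 0.96 in AIA-cold, 0.52 in AIA-hot, 2.27 in AIA-cold-WTD and 2.53 in AIA-hot-WTD over 8 tested genes. In limma 0 of them passed in any of these, and 0, 1, 1, 5 and 6 had an unadjusted p under 0.05, where 6.29%, 18.7%, 12.1%, 15.1% and 13.5% of all genes did. Medians over all genes were -0.06 to -0.03, and without control replicate 1 those of the neutrophil genes were 0.42, 1.20, 0.76, 2.54 and 2.71. Cxcr1 and Cxcr2, the receptors of neutrophil attractants, were well above background on 0 and 9 of 18 arrays and were not tested. Among the 11 tested genes of the NF-kB, IL-1 and IL-17 list, Il1b, which encodes interleukin-1 beta, passed in AIA-hot against control (2.11 ± 0.32, adjusted p = 0.0343) and no other member of any list passed in any comparison. The list's median there was 0.13, and 8 of its 11 genes were higher.

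Cxcl9, an interferon-gamma-induced ligand of Cxcr3, was well above background on all 18 arrays (chr14:17288831-17288890). Control arrays read -0.08, -1.35 and -1.47 and AIA arrays -0.62, -0.62 and -1.02. The AIA-cold values were -0.15, -0.11 and -0.53, and the AIA-hot values -0.12, 0.15 and -0.48. WTD arrays spread more widely, at 0.44, -0.94 and -1.76 in the cold model and 0.31, -0.79 and -0.50 in the hot. Control replicate 1 stood 1 log2 unit or more above the other controls. Without it, 14 of the 15 arthritic arrays lay above both remaining controls, and AIA-cold-WTD replicate 3 lay below them.

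In the fit of all arrays Cxcl9 differed from control by 0.22 ± 0.48 in AIA (adjusted p = 0.883), 0.71 in AIA-cold (adjusted p = 0.440), 0.82 in AIA-hot (adjusted p = 0.509), 0.22 in AIA-cold-WTD and 0.65 in AIA-hot-WTD. Its arrays overlapped with control in every one of these. Without control replicate 1 the differences were 0.66, 1.15, 1.26, 0.66 and 1.09, with adjusted p of 0.286 or more. In an alternative fit limma weighted the arrays by how closely each followed the fitted mean of its own group. The weight was 0.0932 for control replicate 1 and 0.219 for AIA-cold-WTD replicate 1. With these weights Cxcl9 passed in limma in AIA-cold (1.18 ± 0.27, adjusted p = 0.0110), AIA-hot (1.29 ± 0.32, adjusted p = 0.0316) and AIA-hot-WTD (1.24 ± 0.31, adjusted p = 0.0323). Over all alternatives the adjusted p of these 3 ran from 0.0110 to 0.677, from 0.0316 to 0.885 and from 0.0323 to 0.939. Leaving both arrays out altogether, an alternative chosen after the data were seen, gave 1.15, 1.26 and 1.09 with adjusted p of 0.0996, 0.128 and 0.147. The call on Cxcl9 thus depends on the array weights.

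Against AIA, Cxcl9 arrays did not overlap in AIA-cold (0.49 ± 0.48 higher, adjusted p = 0.839) or in AIA-hot (0.60 ± 0.48 higher, adjusted p = 0.878). Within slide 2, which held 2 arrays of each, AIA-hot exceeded AIA by 0.84. WTD differed by -0.49 ± 0.48 in the cold model (adjusted p = 1.000) and by -0.17 ± 0.48 in the hot. The cold value moved with the array left out. Without AIA-cold-WTD replicate 1 it was -1.09 (limma's adjusted p = 0.366), and the highest value on leaving out an array was 0.01. Within slide 4, which held AIA-cold-WTD replicate 1 and the AIA-cold arrays, it was 0.70. With array weights the cold difference was -0.96 and passed (adjusted p = 0.0454, against 0.0454 to 1.000 over all alternatives).

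Cxcl10, the interferon-induced Cxcr3 ligand read at chr14:17267994-17268053, varied most among the tested members, with an SD over 18 arrays of 1.35, larger than that of 99.2% of all genes tested. On control arrays it lay at -2.09, 0.11 and -0.74, and on AIA arrays at 0.21, 2.45 and 1.30. AIA-cold arrays read -0.67, 0.21 and -1.19, and AIA-hot arrays 0.26, 1.63 and 1.02. The WTD arrays ranged from -0.78 to 2.21 in the cold model (2.21, -0.78 and -0.29) and from -1.72 to 2.09 in the hot (1.03, -1.72 and 2.09). All 3 arrays of AIA and of AIA-hot lay above the highest control, while of the AIA-cold arrays replicate 2 alone did.

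For Cxcl10 the difference from control was 2.22 ± 0.97 in AIA (4.67-fold, adjusted p = 0.756) and 1.88 ± 0.97 in AIA-hot (3.67-fold, adjusted p = 0.454), against 0.35 ± 0.97 in AIA-cold (adjusted p = 0.867). Without control replicate 1, which read Cxcl10 too near background, these were 1.63, 1.28 and -0.24. AIA-cold lay below AIA by 1.87 (-1.87 ± 0.97, adjusted p = 0.591, overlapping through AIA-cold replicate 2 and AIA replicate 1, both 0.21) and below AIA-hot by 1.52 (-1.52 ± 0.97, adjusted p = 0.964, no overlap). Within slide 1 AIA replicate 1 exceeded the 3 controls by 1.11. Without control replicate 1 the control mean there was -0.31, against 0.21 on AIA replicate 1. WTD in the cold model differed by 0.93 ± 0.97 (adjusted p = 1.000), which was 0.01 without AIA-cold-WTD replicate 1 and 2.76 within slide 4. In the hot model it differed by -0.50 ± 0.97, and the difference between the WTD effects was 1.43 ± 1.37 (adjusted p = 0.988).

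Cxcl11, the third Cxcr3 ligand, was well above background on 5 of 18 arrays (chr14:17252192-17252251) and was not tested. These were AIA-cold-WTD replicate 1 (-0.97), AIA-hot replicates 1 and 2 (-3.06 and -2.99) and AIA-hot-WTD replicates 1 and 3 (-2.53 and -3.07). No control array (-3.49, -5.73 and -5.69), AIA array (-4.39, -4.18 and -5.10) or AIA-cold array (-4.61, -5.23 and -6.38) was. AIA-hot came out at least 2.15-fold above AIA-cold and at least 1.08-fold above AIA, with each dim array held at its limit of detection, and its arrays overlapped with neither; both bounds include the third AIA-hot array (-4.00), which was not well above background, so they are not strict. No fold over control could be given, because the limit on control replicate 1 was -1.86. Without that array AIA-hot stood at least 1.37-fold and AIA-hot-WTD at least 1.42-fold above control, with the same reservation.

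**Figure D2:**
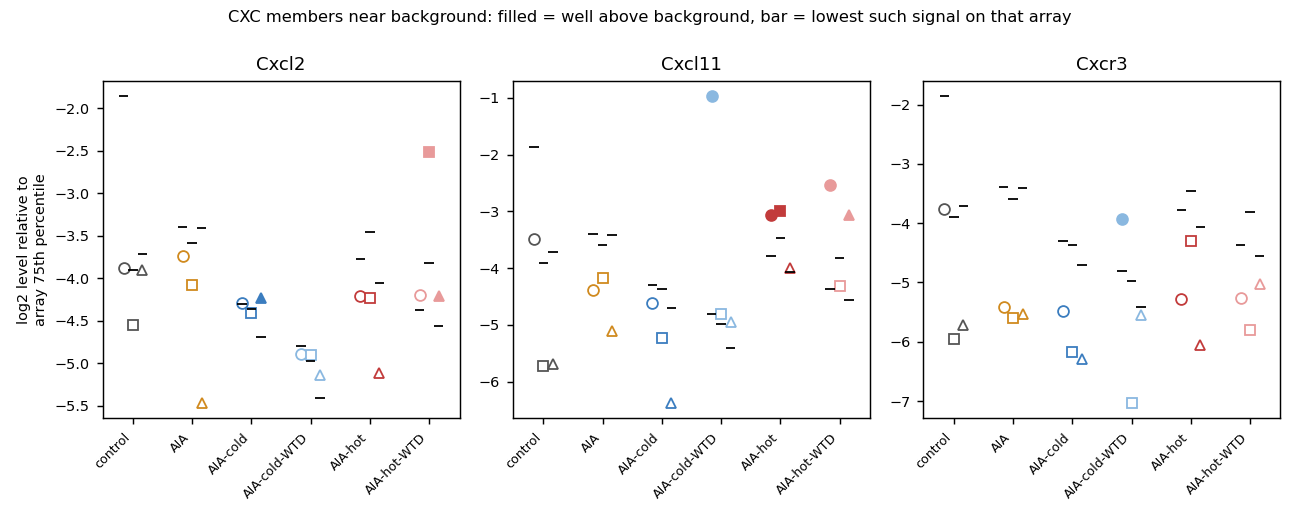
Levels of the 3 members read near background on each array (log2, relative to the array's 75th percentile; circle, square and triangle are replicates 1, 2 and 3). Filled points are well above background and each short bar is the lowest well-above signal of that array; Cxcl2 has 3 filled points, Cxcl11 has 5 and Cxcr3 has 1.

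AIA-cold-WTD replicate 1 was the highest array for Cxcl9 and Cxcl11, the second highest for Cxcl10 and the only array on which Cxcr3 was well above background. On it the mean of 14 T and NK cell genes was -1.61, against -2.37 and -2.11 on the other AIA-cold-WTD arrays, and the mean of 14 interferon gamma axis genes was 0.63 against 0.27 and 0.26. The type I interferon mean (12 genes) was 0.27 there, against 0.31 and 0.42, and the adipocyte mean was the lowest of all arrays at 1.76. Their part in the readings was not tested. Over 18 arrays Cxcl9 and Cxcl11 had a Pearson correlation of 0.72 (0.71 without control replicate 1), Cxcl10 and Cxcl11 of 0.51 (0.63) and Cxcl9 and Cxcl10 of 0.29 (0.42). These are descriptions over arrays that share groups and slides, and Cxcl11 was mostly near background.

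The interferon lists were set beside the 3 ligands. In AIA-hot all 12 tested type I interferon response genes were higher than in control, with a median of 1.33, and 13 of 14 interferon gamma axis genes were, with a median of 0.40; in limma 0 passed in either list, and 4 and 3 had an unadjusted p under 0.05, where 12.1% of all genes did. In AIA-cold the medians were -0.18 and 0.00, and all 12 type I genes were lower than in AIA-hot (median -1.13; 0 passed and 8 had an unadjusted p under 0.05, where 5.49% of all genes did). With 2 controls, leaving out control replicate 1, the AIA-hot medians were 1.31 and 0.50 and the AIA-cold medians -0.21 and -0.02. Single arrays carried much of this: the type I mean was 0.13, 2.62 and 1.14 on the AIA-hot arrays and 1.08, 0.76 and 0.35 in AIA. T and NK cell genes had a median difference from control of 0.26 in AIA, 0.69 in AIA-cold and 0.95 in AIA-hot over 14 genes, or 0.52, 0.91 and 1.37 without control replicate 1. Medians over all genes in these 4 comparisons lay between -0.05 and 0.01.

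Cxcr3, the shared receptor of Cxcl9, Cxcl10 and Cxcl11 on activated T and NK cells, was read on chromosome X (chrX:89794887-89794946). It was well above background on 1 of 18 arrays, AIA-cold-WTD replicate 1 (-3.92), and positive and significant on 8. The other values ran from -7.03 to -3.75. The highest of them was control replicate 1, on which the lowest signal well above background was -1.86, so no order of the groups can be read from this probe. Cxcr3 was not tested.

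Cxcl12, the stromal ligand of Cxcr4, was well above background on all 18 arrays with both of its probes. The tested probe is annotated to transcript variant 1 (chr4:153510217-153510276) and the other to variant 3 (chr4:153516205-153516264). Variant 1 read 3.79, 5.04 and 5.14 in control, 4.99, 4.97 and 5.02 in AIA, and 5.68, 5.21 and 5.87 in AIA-cold. In AIA-hot it read 5.31, 5.79 and 4.99, in AIA-cold-WTD 5.45, 4.92 and 4.95, and in AIA-hot-WTD 5.54, 4.97 and 5.13. All AIA-cold arrays lay above every control and every AIA array. Control replicate 1 lay over 1 log2 unit below every other array.

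AIA-cold exceeded control by 0.93 ± 0.32 on the variant 1 probe (1.91-fold, adjusted p = 0.146) and AIA by 0.59 ± 0.32 (adjusted p = 0.615). Its difference from control was 0.49 ± 0.25 without control replicate 1 (adjusted p = 0.390). The other groups differed from control by 0.34 (AIA), 0.71 (AIA-hot), 0.45 (AIA-cold-WTD) and 0.56 (AIA-hot-WTD), and by -0.10, 0.27, 0.01 and 0.12 without that array. WTD differed by -0.48 ± 0.32 in the cold model (adjusted p = 0.963) and -0.15 ± 0.32 in the hot. With array weights the cold difference was -0.60 and passed narrowly (adjusted p = 0.0494, against 0.0494 to 1.000 over all alternatives). Within slide 4, which held the AIA-cold arrays and AIA-cold-WTD replicate 1, it was -0.14. AIA-cold-WTD replicates 2 and 3 lay on slide 5, which held no AIA-cold array, so there slide and WTD cannot be told apart.

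The variant 3 probe gave another picture. It read 5.31, 4.73 and 4.76 in control, 5.28, 4.83 and 4.93 in AIA and 5.23, 5.61 and 4.96 in AIA-cold, but 4.36, 4.41 and 4.92 in AIA-hot. With WTD it read 4.11, 4.72 and 4.90 in the cold model and 4.80, 4.83 and 4.37 in the hot. Here AIA-hot differed from control by -0.37 ± 0.25 (adjusted p = 0.583), where variant 1 gave 0.71. AIA-cold exceeded AIA-hot by 0.70 ± 0.25 on variant 3 (adjusted p = 0.771, no overlap) and by 0.22 ± 0.32 on variant 1. AIA-cold-WTD lay below AIA-cold on both, by -0.69 ± 0.25 (adjusted p = 0.691, no overlap) and -0.48 ± 0.32. Over the 18 arrays the probes had a Pearson correlation of -0.32 (-0.14 without control replicate 1). The direction of Cxcl12 against control therefore differed between probes in AIA-hot, AIA-cold-WTD (-0.35) and AIA-hot-WTD (-0.27), and was the same in AIA (0.09) and AIA-cold (0.34). The variant 3 differences without control replicate 1 were 0.27 in AIA, 0.53 in AIA-cold, -0.18 in AIA-hot, -0.17 in AIA-cold-WTD and -0.08 in AIA-hot-WTD, so that the probes then shared their direction in AIA-cold alone; in AIA variant 1 gave -0.10, and the arrays lay apart from the remaining controls in opposite directions.

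**Figure D3:**
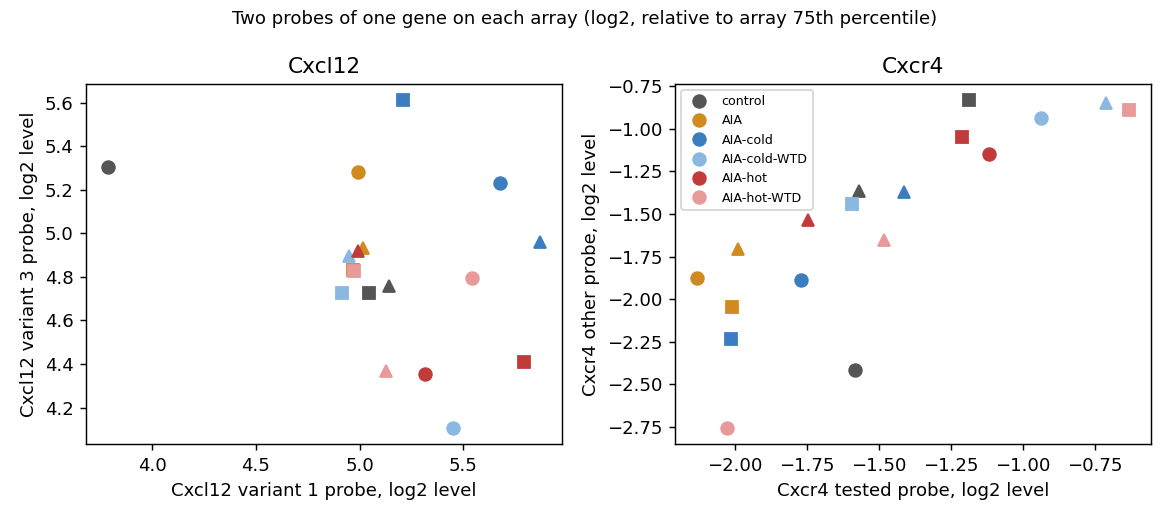
Readings of both probes of Cxcl12 (left) and of Cxcr4 (right) on each of the 18 arrays (log2, relative to the array's 75th percentile; colours are groups, and circle, square and triangle are replicates 1, 2 and 3). The Cxcr4 probes go up together (Pearson 0.82), whereas the Cxcl12 probes do not (-0.32), with control replicate 1 at the far left for variant 1.

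Cxcr4, the receptor of Cxcl12 on leukocytes, was tested with a probe at chr13:41308900-41308959. Its levels were -1.59, -1.19 and -1.57 in control, -2.13, -2.01 and -1.99 in AIA and -1.77, -2.01 and -1.41 in AIA-cold. AIA-hot arrays read -1.12, -1.21 and -1.75. Arrays with WTD read -0.94, -1.59 and -0.71 in the cold model and -2.03, -0.63 and -1.48 in the hot. All AIA arrays lay below every control array and below every AIA-hot array. The hot model given WTD spanned nearly the whole range.

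In AIA Cxcr4 differed from control by -0.60 ± 0.31 (adjusted p = 0.756), and AIA-hot from AIA by 0.69 ± 0.31 (adjusted p = 0.878). The difference between AIA-hot and AIA was 0.84 within slide 2, and on the other Cxcr4 probe, at chr13:41309106-41309165, it was 0.63 ± 0.43, also without overlap. On that other probe AIA averaged -1.88 against -1.54 in control, and the arrays overlapped. Without control replicate 1 the AIA difference on it was -0.78, without overlap. On the tested probe AIA-cold differed from control by -0.28, AIA-hot by 0.09 and the WTD groups by 0.37 and 0.07. Without control replicate 1 the differences were -0.66 in AIA, -0.35 in AIA-cold, 0.02 in AIA-hot, 0.30 in AIA-cold-WTD and 0.00 in AIA-hot-WTD. WTD in the cold model gave 0.65 ± 0.31 (adjusted p = 0.836; 0.76 ± 0.43 on the other probe), and in the hot model -0.02 ± 0.31 (-0.52 ± 0.43 on the other probe). The difference between both WTD effects was 0.67 ± 0.44 (adjusted p = 0.988). Both probes correlated at 0.82 over 18 arrays and at 0.87 without control replicate 1, on which the second probe was not well above background.

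Cxcl13, which guides B cells and marks lymphoid aggregates, was well above background on every array (chr14:15126534-15126593). It read 2.24, 5.20 and 5.23 in control and 4.27, 5.33 and 3.74 in AIA. AIA-cold arrays lay close together at 4.05, 3.79 and 3.98, as did AIA-cold-WTD arrays at 4.04, 4.20 and 4.21. AIA-hot read 4.92, 4.62 and 4.70 and AIA-hot-WTD 5.04, 4.10 and 4.96. Control replicate 1 was the lowest of all arrays and the other controls were exceeded only by AIA replicate 2. All AIA-cold arrays lay below all AIA-hot arrays.

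The Cxcl13 differences turned on 1 control array, in sign for AIA, AIA-hot and AIA-hot-WTD and in size for AIA-cold and AIA-cold-WTD. With all controls AIA differed by 0.22 ± 0.61, AIA-cold by -0.28, AIA-hot by 0.52, AIA-cold-WTD by -0.07 and AIA-hot-WTD by 0.48, with adjusted p from 0.755 to 0.966. Without control replicate 1 they were -0.77, -1.28, -0.47, -1.07 and -0.52, and 14 of 15 arthritic arrays lay below both remaining controls. The AIA-cold difference then had an SE of 0.36 and an adjusted p of 0.133. With array weights it was -1.21 ± 0.29 and passed (adjusted p = 0.0120, against 0.0120 to 0.926 over all alternatives). AIA-cold differed from AIA-hot by -0.81 ± 0.61 (adjusted p = 0.982). WTD differed by 0.21 ± 0.61 in the cold and -0.05 ± 0.61 in the hot model.

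Markers of cells that Cxcl13 attracts were read beside it. The receptor gene Cxcr5 was well above background on 1 of 18 arrays. Of 15 listed genes of B cells and lymphoid stroma, 5 were tested, and their median difference from control was -0.32 in AIA, 0.19 in AIA-cold, 0.62 in AIA-hot, -0.06 in AIA-cold-WTD and 0.15 in AIA-hot-WTD. When control replicate 1 was left out these were -0.27, 0.05, 0.43, -0.20 and 0.06. In limma 0 passed and 1 of the 5 had an unadjusted p under 0.05 in each of these comparisons. Of all genes 6.29% had one in AIA, 18.7% in AIA-cold, 12.1% in AIA-hot, 15.1% in AIA-cold-WTD and 13.5% in AIA-hot-WTD. The macrophage mean on control replicate 1 was 1.82 against 3.67 and 3.63 on the other controls, and 3.00 to 3.70 on the arthritic arrays; its part in the low Cxcl12 and Cxcl13 readings there was not tested.

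**Figure D4:**
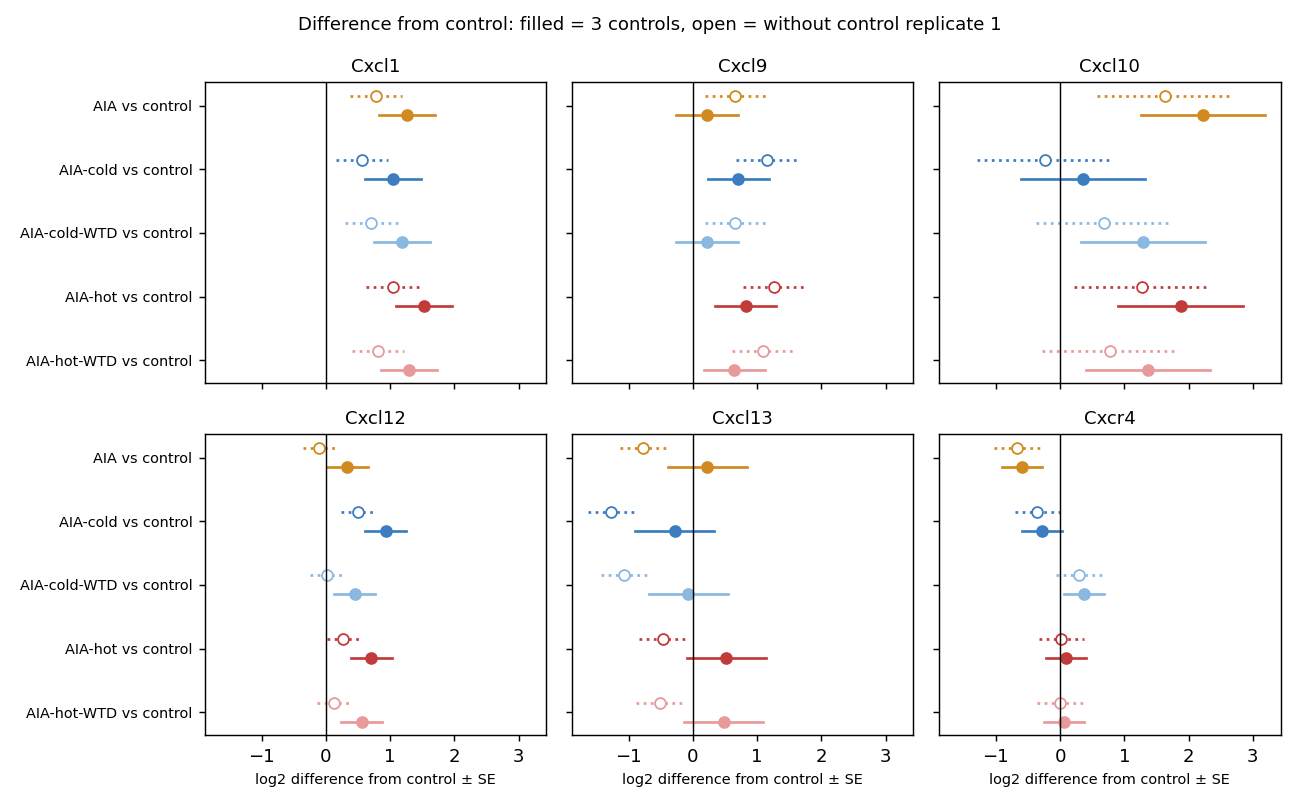
Difference of each arthritis group from control for the 6 tested members (log2, with bars of 1 SE). Filled points use 3 control arrays and open points leave out control replicate 1: Cxcl13 in AIA-hot moves from 0.52 to -0.47, Cxcl9 in AIA-hot from 0.82 to 1.26, and Cxcl1 in AIA-hot from 1.52 to 1.04.

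Counts of members whose arrays did not overlap, each member read on its tested probe, were set against all genes. In AIA against control 2 members were higher (Cxcl1 and Cxcl10) beside 5.32% of all genes, and 1 was lower (Cxcr4) beside 5.34%. AIA-hot against control had 2 higher (Cxcl1 and Cxcl10; 5.02%), AIA-cold 1 (Cxcl12; 10.8%), AIA-cold-WTD 1 (Cxcl1; 6.45%) and AIA-hot-WTD 1 (Cxcl1; 6.78%). In these 4 comparisons 0 members were lower, beside 8.06%, 14.1%, 9.83% and 11.3% of all genes. These counts rest in part on control replicate 1. Without it, AIA had 3 members higher (Cxcl1, Cxcl9 and Cxcl10) beside 13.3% of all genes and 2 lower (Cxcl12 and Cxcr4) beside 12.1%. AIA-cold then had 2 higher (Cxcl9 and Cxcl12; 20.7%) and 1 lower (Cxcl13; 24.1%), and AIA-hot 3 higher (Cxcl1, Cxcl9 and Cxcl10; 12.9%) and 1 lower (Cxcl13; 17%). AIA-cold-WTD had 1 higher (Cxcl1; 13.6%) and 1 lower (Cxcl13; 16.4%), and AIA-hot-WTD 2 higher (Cxcl1 and Cxcl9; 14.4%) and 1 lower (Cxcl13; 22.9%). Against AIA, AIA-cold had 2 higher (Cxcl9 and Cxcl12; 10.7%) and AIA-hot 2 (Cxcl9 and Cxcr4; 4.07%), with 0 lower in either, beside 13.5% and 5.84%. AIA-cold had 2 members below AIA-hot (Cxcl10 and Cxcl13; 6.77%) and 0 above it (8.28%). On the tested probes WTD separated 0 of the 6 members from the untreated model in either model. Of all genes, 7.68% were higher and 6.71% lower in the cold model, and 2.64% higher and 4.43% lower in the hot. The variant 3 probe of Cxcl12, not counted here, did separate: it was lower in AIA-cold-WTD than in AIA-cold, and higher in AIA-cold than in AIA-hot. On the other Cxcr4 probe, also not counted, AIA overlapped with control when all controls were kept.

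Averaged over both models, the effects of WTD on the tested members were -0.04 ± 0.31 for Cxcl1, -0.33 ± 0.34 for Cxcl9, 0.21 ± 0.68 for Cxcl10, -0.32 ± 0.23 for Cxcl12, 0.08 ± 0.43 for Cxcl13 and 0.31 ± 0.22 for Cxcr4, each with an adjusted p = 1.000 in limma. The 95% interval for Cxcl10 ran from -1.25 to 1.68 and that for Cxcl1 from -0.70 to 0.62. A difference of that size in either direction cannot be told from these arrays.

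Of 18 other genes of the CXC family and its relatives, 16 had a probe and 11 were tested. In limma 0 of the 11 passed in any comparison. Up to 3 had an unadjusted p under 0.05 (AIA-cold-WTD against control, where 15.1% of all genes did). Cxcl3, Cxcl6 and Xcl1 passed the detection filter through AIA-cold-WTD alone and are among the 11, so that count is no independent support for a difference. The medians of the 11 also include these genes, which were mostly near background elsewhere. The median difference of the 11 from control was -0.11 in AIA, -0.05 in AIA-cold and 0.08 in AIA-hot, and -0.04, 0.15 and 0.04 without control replicate 1. Cxcl6, a neutrophil attractant named Cxcl5 on the array, was well above background on 1 array each of control (replicate 1, -1.19), AIA, AIA-cold and AIA-hot, on 3 of AIA-cold-WTD and on 0 of AIA-hot-WTD, so no difference is read from it. Cx3cl1, the membrane-bound fractalkine, lay below control without overlap on its tested probe in AIA-cold (-0.67 ± 0.24) and AIA-cold-WTD (-0.75 ± 0.24). The differences were -0.29 and -0.37 without control replicate 1. With all controls, 14.1% and 9.83% of all genes lay lower without overlap in these comparisons. On the other Cx3cl1 probe, well above background on all 18 arrays, both groups overlapped with control, with means of -2.05 and -2.22 against -1.36. Cxcl17 lay lower in AIA-hot (-0.99 ± 0.36) and AIA-cold-WTD (-0.89 ± 0.36), or by -0.50 and -0.40 without control replicate 1. It was also lower in AIA-hot than in AIA (-0.49) and AIA-cold (by 0.65).

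Some relatives read apart between WTD arrays and their models. Ppbp, a platelet chemokine, was well above background on 3 AIA-hot-WTD arrays (-2.61, -0.80 and -3.08) but on 1 array each of AIA-hot (-3.85, -3.63 and -3.30) and control (-3.30, -3.48 and -4.23). Its AIA-hot-WTD arrays lay above both groups without overlap, as did 2.64% of all genes against AIA-hot and 6.78% against control. Ppbp passed the detection filter through the WTD groups alone, so this separation is no independent support for a difference. In AIA-cold-WTD, where 3 arrays were also well above background, it overlapped with AIA-cold and with control. No exact difference is given against groups mostly near background. Cxcl14 was lower in AIA-cold-WTD than in AIA-cold (-1.08 ± 0.40, adjusted p = 0.688) and control (-0.49 ± 0.40, or -0.36 without control replicate 1), and Pf4, a platelet chemokine, lower than in AIA-cold (-0.62 ± 0.39). Pf4 was also higher in AIA-cold than in AIA (0.58 ± 0.39). Cxcr6, the receptor of Cxcl16, was well above background on 4 of 18 arrays, and Xcr1 on 0.

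Genes whose levels followed a member most closely over the 18 arrays were ranked by Pearson correlation among 11951 genes with a symbol. For Cxcl1 they were Cenpj (0.91, and 0.81 without control replicate 1), Vmp1 (0.91 and 0.80) and Tnip2 (0.88 and 0.75). Cxcl9 had Znf408 (0.83 and 0.85), Il2rb (0.82 and 0.82), a receptor chain of interleukin-2 and interleukin-15 on T and NK cells, and Avp (0.80 and 0.79). Cxcl10 had Osgin2 (0.79 and 0.76), Abca3 (0.72 and 0.65) and Sike1 (0.71 and 0.63). The arrays share groups, slides and depth, so these values are descriptions only.

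Cxcl12 was followed by Clec10a (0.97 and 0.93), a macrophage lectin, RT1-Da (0.94 and 0.87), an MHC class II chain, and Hsd11b2 (0.93 and 0.84). Nearest to Cxcl13 were Srgap2 (0.86 and 0.69), Snx6 (0.86 and 0.69) and Ctss (0.85 and 0.66), a protease of antigen-presenting cells, all lower without control replicate 1. Cxcr4 had Spag5 (0.87 and 0.89), Incenp (0.87 and 0.90) and Cdc20 (0.86 and 0.87), which serve chromosome segregation in mitosis. The order of the group means differed between members: Cxcl1 and Cxcl9 were highest in AIA-hot, Cxcl10 in AIA, Cxcl12 in AIA-cold, Cxcl13 in AIA-hot and Cxcr4 in AIA-cold-WTD. The control mean of Cxcl13 without control replicate 1 was 5.22, above every arthritis group. In the main fit, without array weights, no pair of groups compared differed past the threshold for any of these members.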

How the data were processed

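Scanner text files gave spot intensity values. The scanner software was Agilent Feature Extraction 10.7, a version taken from the submitters' processing notes. The file headers describe the deposited processed intensity as background-subtracted and detrended within each array, with no scaling between arrays. The authors' deposited series table held log2 values whose scaling step is not given in the sources used here. Its column medians were 5.40 to 5.42, its columns followed the scanner values closely (Pearson 0.989 to 1.000), and it was used as an alternative.

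From 41012 gene probes an array, control spots and outlier spots were dropped, and log2 processed signal was set relative to the array's 75th percentile. A probe was kept when each of the 3 arrays of some group read it well above background, which left 28275, and a gene was read from its brightest kept probe. Members and lists were chosen with earlier results of these data known. Names came from the files, updated through RefSeq's table for GRCr8 (18019 by accession, 3177 by symbol, 400 by synonym, 19416 kept).

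One fit with limma 3.58.1 (lmFit and eBayes, R 4.3.3) held all 18 arrays, with 12 residual degrees of freedom; it was tested on simulated data. Adjusted p are Benjamini-Hochberg over all genes of a comparison. For a probe that was not well above background in a group, "at least" sets the brighter mean against each dim array's detection limit, the higher of its lowest well-above signal and the probe's own. Named genes were all members, CXC relatives without array overlap when all controls were kept, and the 3 genes closest to each tested member. Relatives that lay apart from control only without control replicate 1, such as Cx3cr1 (lower in all 5 arthritis groups), were not described. Alternatives were quantile normalization, normexp with an offset of 50, the series table, other filters and probe rules, slide as a block, array weights and leaving out each array. The number of arrays limits the precision.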

Additional observations from a re-analysis of the deposited data

How the results depend on the processing

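With array weights the count of members called was 2 in AIA-cold against control (Cxcl9 and Cxcl13), 1 each in AIA-hot, AIA-hot-WTD and untreated arthritis against control (Cxcl9), 2 in AIA-cold-WTD against AIA-cold (Cxcl9 and Cxcl12) and 2 among the 6 groups (limma's adjusted p = 0.0190 for Cxcl9 and 0.0413 for Cxcl13, against up to 0.943 and 0.972 over all alternatives); it was 0 in the other comparisons and under the other 11 settings fitted, among them slide as a random block and, in the comparisons where it could be fitted, as a fixed one. The share of all genes passing with array weights is not given here, so the counts of members with weights cannot be judged against it. Weights were 0.0932 for control replicate 1, 0.219 for AIA-cold-WTD replicate 1 and 0.428 for AIA-hot replicate 3. Leaving out each array in turn gave 0 to 0 calls in every comparison, with a smallest adjusted p of 0.0885, and the opposite sign in 49 of 1512 member values. Of 990 values under other settings 55 had the opposite sign; except where named, the cause was not tested. Cxcl2, Cxcl11 and Cxcr3 were positive and significant on 17, 16 and 8 arrays, against 3, 5 and 1 well above background. No paired analysis was possible because the replicate numbers were given in order of deposit and pair no arrays.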
